A study of Mus musculus with 10 samples.

Results

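The genes described here are 10 regulators and markers of the epithelial to mesenchymal transition (EMT): Cdh1, Epcam and Esrp1 of the epithelial side, Vim and Cdh2 of the mesenchymal side, and the transcription factors Snai1, Snai2, Twist1, Zeb1 and Zeb2. They were listed by name, without a rule on their values, though with earlier results of these data known. On the mouse whole-genome array they were read by 22 of the 45037 probe sets tested, each annotated to 1 of these genes alone. A probe set is a group of short probes for the same transcript. The brightest of a gene's probe sets stood for the gene (its main probe set), as for all 18193 genes named on the array, and the others are given beside it.

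The 10 tumors arose spontaneously in female Tg-neu mice, strain FVB/N-Tg(MMTVneu), in which the MMTV promoter drives the neu oncogene chiefly in mammary epithelium. Of these, 5 came from mice given lovastatin (Lov), an inhibitor of the mevalonate pathway, at 10 mg per kg intraperitoneally 3 times a week for 6 weeks from the first palpable tumor. The other 5 came from mice given ethanol vehicle (Vhcl), although a free-text label calls these controls not treated. The ages of the mice were not given in the sources used here. No label says from which mouse a tumor came, or whether the 5 tumors of a group came from separate mice. Each tumor was hybridized to 1 array, as RNA of the whole tissue. Values are log2 signals, so a difference of 1 is 2-fold. In whole tumors, fewer cells of a type and less RNA per cell cannot be told apart.

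EMT is the program by which epithelial cells lose cell-to-cell adhesion and polarity and gain motility. Factors of the Snail (Snai1, Snai2) and Zeb (Zeb1, Zeb2) families bind E-box elements and repress epithelial genes, Cdh1 foremost, while Twist1 is a basic helix-loop-helix factor that acts on the same program. Vimentin, the product of Vim, is an intermediate filament of mesenchymal cells, which in a tumor include fibroblasts, endothelial cells and leukocytes. In mammary carcinoma the program is known for its link to invasion and to loss of luminal traits.

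The E-box of the Snail and Zeb factors connects the members to each other, so promoter sequence was examined first. In the RefSeq promoter table (GRCm38.p6), 5 of the 10 genes had an entry, with 8 promoters in all (Epcam, Snai1, Twist1, Vim and Zeb2). The 250 bases before the transcription start were searched for CACCTG or CAGGTG, which are reverse complements, so that both strands were covered. Of 32851 promoters, 5657 (17.2%) held at least 1 match. Of the 8 member promoters 2 did, those of Epcam and Snai1, and those of Twist1, Vim and Zeb2 had 0 matches. Epcam had 2 matches, at 187 and 19 bases before the start (chr17:87635729-87635978, plus strand). Snai1 had 1 match, at 126 bases before the start (chr2:167537945-167538194, plus strand). Vim is shown as a mesenchymal gene with 0 matches (chr2:13574061-13574310, plus strand). The sequences are written 5′ to 3′, with the matches in capitals. A match describes letters, not binding.
Epcam: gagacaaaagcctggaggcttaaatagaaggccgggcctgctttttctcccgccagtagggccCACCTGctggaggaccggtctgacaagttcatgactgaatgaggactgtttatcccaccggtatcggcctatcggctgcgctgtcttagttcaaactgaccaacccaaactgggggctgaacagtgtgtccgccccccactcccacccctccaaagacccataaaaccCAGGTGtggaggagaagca
Snai1: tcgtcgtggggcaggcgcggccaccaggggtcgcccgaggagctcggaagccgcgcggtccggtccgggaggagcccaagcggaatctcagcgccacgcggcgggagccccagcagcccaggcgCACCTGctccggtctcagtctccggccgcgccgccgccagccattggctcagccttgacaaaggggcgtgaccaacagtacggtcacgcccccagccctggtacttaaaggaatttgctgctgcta
Vim: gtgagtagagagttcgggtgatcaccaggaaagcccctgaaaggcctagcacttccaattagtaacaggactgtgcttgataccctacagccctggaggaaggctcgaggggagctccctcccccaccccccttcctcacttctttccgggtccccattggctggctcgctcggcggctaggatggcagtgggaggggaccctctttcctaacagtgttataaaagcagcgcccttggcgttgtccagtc

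The arrays had similar overall signal, with medians from 4.97 to 5.05. Since the mice were female, 9 probe sets of the Y-linked genes Eif2s3y, Kdm5d and Uty gave the signal of transcripts that should be missing, with means from 2.45 to 3.19 and single values up to 3.56. Of 6 luminal markers, the keratins Krt8 (12.03 ± 0.19 in Vhcl, SD, n = 5) and Krt18 (12.41 ± 0.28) were far above this. Cd24a was at 11.93 and Krt7 at 8.68 in Vhcl. Muc1 (6.63) and Krt19 (5.82) were lower than the basal marker Mylk (6.75). The 7 basal and myoepithelial markers had Vhcl means from 3.28 (Krt17) to 6.75 (Mylk), with Krt5 at 5.59, Krt14 at 4.60 and Trp63 at 4.73. All were above the highest Y-linked mean. Krt17, with values up to 3.50 in Vhcl and 3.53 in Lov, stayed below the highest single Y-linked value. Salivary gland transcripts were higher in Vhcl. All 6 measured genes of that list had negative differences, with a median of -2.46. With p under 0.05, 3 of them were lower, against 2.75% of all genes. The summed linear signal had medians of 955 in Vhcl and 157 in Lov, with overlapping ranges. The log2 of the sum had means of 10.93 in Vhcl and 7.61 in Lov. This list was chosen with earlier results of these data known, so its values are no independent evidence of a group difference. Vhcl AB11 had the highest Amy1 signal, 13.34, whereas Lov tumors ranged from 2.98 to 4.69. The part of these transcripts in the values of the 10 genes was not tested beyond leaving out Vhcl AB11. Among the Lov tumors, A19 had the highest signal of Vim, Cdh2, Snai2 and Zeb1 and the lowest of Cdh1, Epcam, Esrp1 and Snai1, so results that turn on it are given without it too. The difference between the beta-actin 3′ and 5′ control probe sets, a sign of RNA integrity, ran from 0.80 to 1.35 in Vhcl and from 0.67 to 1.07 in Lov (exact permutation test, p = 0.206).

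Lov and Vhcl tumors did not differ detectably in any of the 10 genes. The number with an unadjusted limma p under 0.05 was 0 in either direction, where 6.24% of all 18193 genes were called (2.75% lower and 3.5% higher in Lov). After Benjamini-Hochberg adjustment over all probe sets 0 members and 0% of probe sets were called, with a lowest adjusted p over the arrays of 0.369. Differences were positive for 5 members and negative for 5, with a median of 0.02, against 0.00 over all genes. The median absolute difference was 0.087, against 0.10 over all genes. The groups overlapped for every member, while 0.693% of all genes did not overlap. The 95% interval of the difference of the main probe set lay within -1 to 1 (a 2-fold change) for all 10, and within -0.5 to 0.5 for 6. The intervals of the other 2 Vim probe sets, given with that gene, reached past -1. Changes inside these intervals could not be told from none with 5 tumors per group.

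**Figure D1:**
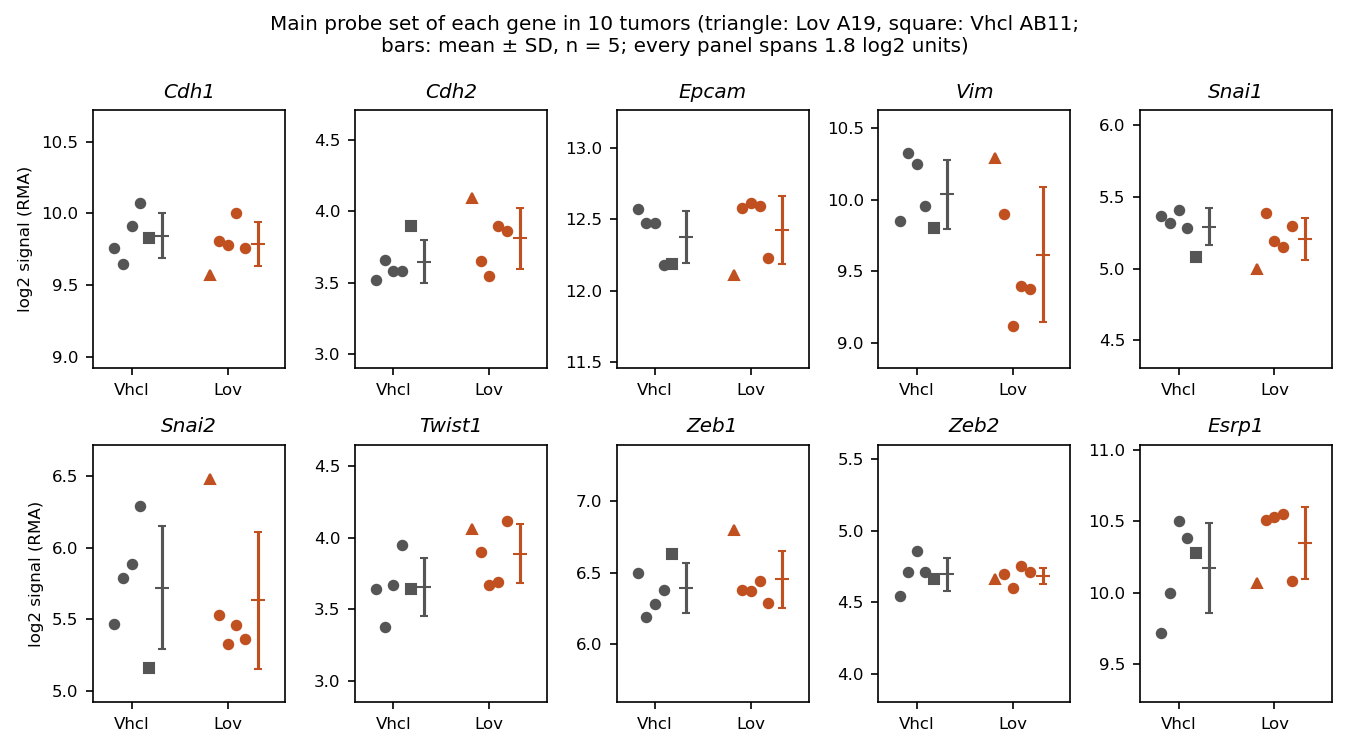
Log2 RMA signal (y axis) of the main probe set of each gene in the 5 Vhcl and 5 Lov tumors, with bars for mean and SD. Points are tumors, the triangle is Lov A19 and the square Vhcl AB11. The groups overlap in all 10 panels, and Lov A19 is the highest Lov tumor for Vim, Snai2, Zeb1 and Cdh2.

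Cdh1, which encodes the adherens junction protein E-cadherin and has 1 probe set, varied little. Its signals were 9.76, 9.65, 9.91, 10.07 and 9.83 in Vhcl A45, A49, A54, A59 and AB11, and 9.57, 9.81, 9.78, 10.00 and 9.76 in Lov A19, A48, A50, A55 and AB10. All 10 values lay within 0.50, with the highest in Vhcl A59 and the lowest in Lov A19. Lov minus Vhcl was -0.06 ± 0.11 (SE; 95% interval -0.30 to 0.18; limma p = 0.589, adjusted 0.992; exact permutation p = 0.571). E-cadherin transcript was thus neither raised nor reduced beyond the spread of the tumors.

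Epcam encodes a surface glycoprotein of epithelial cells that lies in the membrane between neighbors. In the same tumor order, its main probe set gave 12.57, 12.47, 12.47, 12.18 and 12.19 in Vhcl and 12.11, 12.58, 12.61, 12.59 and 12.23 in Lov. Vhcl A59 and AB11 and Lov A19 and AB10 were low, and the remaining 6 tumors were high, so that each group held both levels. The difference was 0.05 ± 0.13 (95% interval -0.24 to 0.33; limma p = 0.72; exact permutation p = 0.619). The second probe set of Epcam gave -0.13 ± 0.13 (p = 0.325; exact permutation p = 0.381), and the pair correlated with r = 0.54 over the tumors.

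The low Epcam tumors were among those with a large beta-actin 3′ to 5′ difference. Over the 10 tumors, Epcam and this difference had r = -0.744 (permutation p = 0.0185, adjusted over the 10 members 0.185) and rho = -0.833 (permutation p = 0.00418, adjusted 0.0418). The relation held with group means subtracted (r = -0.769), within Vhcl (-0.604) and Lov (-0.96), and without the 2 tumors farthest from the median (-0.949). Of all genes, 1.95% had an r at or below that of Epcam. By r and by rho, 0 and 1 of the 10 members passed after adjustment, the latter being Epcam. The part of RNA integrity in the Epcam values was not tested beyond the fit with this difference as a covariate, in which Lov minus Vhcl was -0.088.

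Esrp1 encodes a splicing factor that maintains epithelial isoforms. Its probe set gave 9.72, 10.00, 10.50, 10.38 and 10.28 in Vhcl and 10.07, 10.51, 10.53, 10.55 and 10.08 in Lov. Lov A48, A50 and A55 were the highest tumors, and Vhcl A45 was the lowest. The difference was 0.17 ± 0.16 (95% interval -0.19 to 0.53; p = 0.318; exact permutation p = 0.381). The main probe sets of all 3 epithelial genes were far above the Y-linked signals in every tumor of both groups.

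Vim had the largest difference of the 10 genes. Its main probe set gave 9.85, 10.33, 10.25, 9.96 and 9.80 in Vhcl and 10.29, 9.90, 9.12, 9.40 and 9.38 in Lov. Lov A50, A55 and AB10 lay below all Vhcl tumors, Lov A48 was within the Vhcl range, and Lov A19 was above all Vhcl tumors but A49. The means were 10.04 ± 0.24 in Vhcl and 9.62 ± 0.47 in Lov (SD, n = 5), a difference of -0.42 ± 0.21 (SE; 95% interval -0.87 to 0.03) or 1.34-fold. It did not pass the test (limma p = 0.0671, adjusted 0.958; exact permutation p = 0.127, where 0.00794 is the smallest that 5 against 5 can give).

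The other 2 Vim probe sets had differences of the same sign. Probe set 1438118_x_at gave -0.49 ± 0.25 (95% interval -1.04 to 0.06; p = 0.0741; exact permutation p = 0.159). Probe set 1456292_a_at gave 9.27, 9.71, 9.72, 9.56 and 9.12 in Vhcl and 9.73, 9.10, 8.38, 8.91 and 8.15 in Lov. There, 4 of the 5 Lov tumors lay below all Vhcl tumors and Lov A19 lay above all of them. At least 4 Lov tumors lay below all Vhcl tumors in 1.84% of all probe sets. The difference was -0.62 ± 0.26 (95% interval -1.19 to -0.05; p = 0.0355, adjusted 0.932; exact permutation p = 0.0873). This was 1 of the 22 probe sets with an unadjusted p under 0.05, and the others had none, against 5.28% of all probe sets. The 3 probe sets correlated with r from 0.90 to 0.98 over the tumors, so they are repeated readings of the same variation and not separate evidence.

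**Figure D2:**
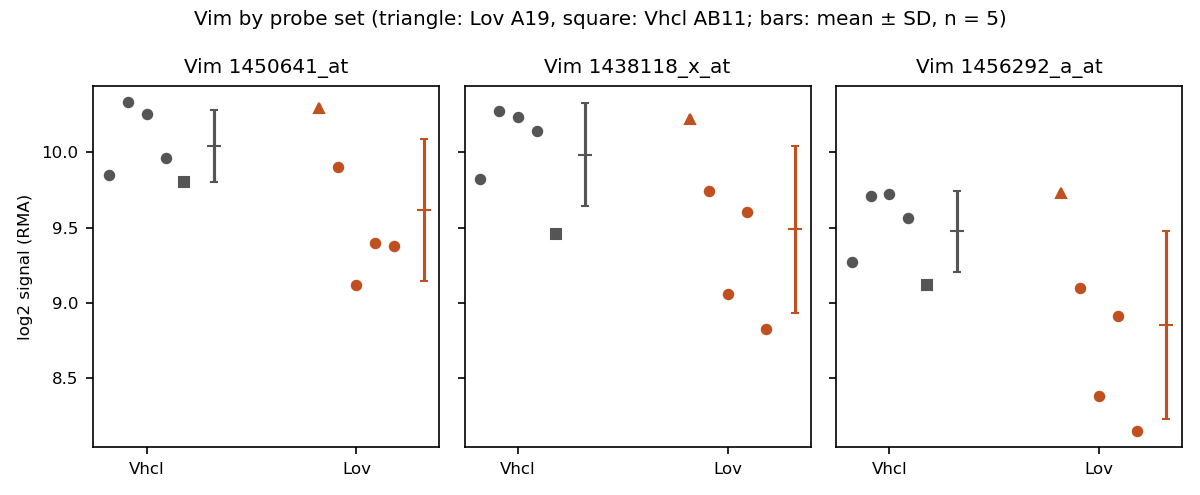
Log2 RMA signal (y axis) of the 3 Vim probe sets in the 5 Vhcl and 5 Lov tumors, with bars for mean and SD. Lov A19 (triangle) is above the other 4 Lov tumors in every panel, and the differences of the means are -0.42, -0.49 and -0.62.

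The Vim call turned on Lov A19 and on the probe set chosen. Lov A19 was the highest Lov tumor for Vim, so leaving it out had to lower the Lov mean. The fits without Lov A19 are thus no support for a difference. Without Lov A19 the main probe set differed by -0.59, and without Lov A19 and Vhcl AB11 by -0.65. Both had an unadjusted limma p under 0.05. Their adjusted p were 0.581 and 0.337. Leaving out Lov A50 instead gave -0.30. With the beta-actin difference as a covariate the value was -0.33, with an unadjusted p above 0.05.

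Vim was also set against the summed signal of markers of 12 cell types. The fibroblast markers were the closest, with r = 0.804 (permutation p = 0.00502, adjusted over the 12 lists 0.0602) and rho = 0.794 (permutation p = 0.00851). With group means subtracted r was 0.809, and without the 2 tumors farthest from the median 0.527, so part of the relation rests on those tumors. The summed linear fibroblast signal ran from 1444 to 4199 in Vhcl (median 2999) and from 738 to 4653 in Lov (median 2008), and 3331 in Lov A19. Of its 8 genes, 6 had negative and 2 positive differences, 0 of them with p under 0.05, and the median was -0.46. Macrophage markers had r = 0.327 with Vim, 0.803 with group means subtracted and -0.0244 without the 2 farthest tumors. Of the 7 macrophage genes, 3 had positive and 4 negative differences, with a median of -0.16. Their sums ran from 1371 to 1673 in Vhcl and from 1320 to 2242 in Lov, with the highest in Lov A19. The brightest gene, Csf1r (9.95 in Vhcl and 10.38 in Lov), made up most of these sums. Endothelial markers ran from 334 to 461 in Vhcl and from 338 to 564 in Lov, again with Lov A19 highest, and had r = 0.396 with Vim. The part of stromal content in the Vim values was not tested.

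Cdh2, which encodes N-cadherin, the adhesion protein of mesenchymal and neural cells, was weak. Its main probe set gave 3.52, 3.66, 3.58, 3.58 and 3.90 in Vhcl and 4.09, 3.65, 3.55, 3.90 and 3.86 in Lov. Most values were just above the highest single Y-linked value of 3.56, and 2 tumors, Vhcl A45 and Lov A50, were below it. The difference was 0.16 ± 0.12 (95% interval -0.10 to 0.42; p = 0.201; exact permutation p = 0.238). Its second probe set gave 0.32 ± 0.22 (p = 0.169; exact permutation p = 0.262), with the highest value, 4.48, in Lov A19. Its mean of 3.73 was not far over the Y-linked range.

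Snai1, the zinc-finger repressor named Snail, gave 5.37, 5.32, 5.41, 5.28 and 5.08 in Vhcl and 5.00, 5.39, 5.19, 5.15 and 5.30 in Lov. The lowest values were in Lov A19 and Vhcl AB11. The difference was -0.09 ± 0.10 (95% interval -0.31 to 0.14; p = 0.413; exact permutation p = 0.373), with 1 probe set for the gene.

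Snai2, named Slug and also a marker of basal mammary cells, was the more variable of the Snail pair in these tumors. Its main probe set gave 5.47, 5.79, 5.89, 6.29 and 5.16 in Vhcl and 6.48, 5.53, 5.33, 5.46 and 5.36 in Lov. Lov A19 was far above the other Lov tumors, which spanned 5.33 to 5.53. The difference was -0.09 ± 0.25 (95% interval -0.63 to 0.46; p = 0.73; exact permutation p = 0.754). The second probe set gave 0.12 ± 0.12 (p = 0.352; exact permutation p = 0.413) and followed the first weakly (r = 0.26). Without Lov A19 and Vhcl AB11 the main probe set differed by -0.44, with an unadjusted limma p under 0.05, and without Vhcl A59 by 0.0545.

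Twist1 gave 3.64, 3.38, 3.67, 3.95 and 3.64 in Vhcl and 4.06, 3.90, 3.67, 3.69 and 4.12 in Lov. Lov AB10 and A19 were above all Vhcl tumors, and the other 3 Lov tumors were inside their range. The difference was 0.23 ± 0.13 (95% interval -0.05 to 0.51; p = 0.0964, adjusted 0.971; exact permutation p = 0.127). Without Vhcl A59 it was 0.31 and with the beta-actin difference as a covariate 0.38, both with an unadjusted limma p under 0.05 and the latter with an adjusted p of 0.774. Within the groups Twist1 was high where that difference was high, with r = 0.88 after subtraction of group means, against 0.443 over the pooled tumors (permutation p = 0.196). As for Cdh2, the signal was low, with a mean of 3.77 over the 10 tumors.

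Zeb1, a repressor with zinc fingers at both ends, gave 6.50, 6.19, 6.28, 6.38 and 6.63 in Vhcl and 6.80, 6.38, 6.37, 6.44 and 6.29 in Lov. The highest values were in Lov A19 and Vhcl AB11, the tumors in which Snai1 was lowest. The difference was 0.06 ± 0.12 (95% interval -0.20 to 0.32; p = 0.629; exact permutation p = 0.651). Its 3 other probe sets gave 0.10, 0.21 and 0.09, and the 4 correlated with each other with r between -0.53 and 0.23. Probe set 1420243_at, from 2.58 to 3.20, lay in the range of the Y-linked probe sets.

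Zeb2, its paralog, had the narrowest range of the main probe sets, with all main values within 0.32. They were 4.54, 4.71, 4.86, 4.71 and 4.66 in Vhcl and 4.66, 4.70, 4.60, 4.75 and 4.71 in Lov. The difference was -0.01 ± 0.09 (95% interval -0.20 to 0.17; p = 0.89; exact permutation p = 0.889). The other 4 probe sets, among them 1422748_at with a range of 0.87, gave 0.11, 0.19, 0.14 and -0.05, and the 5 correlated with r from 0.04 to 0.73. Of these, 1454200_at (mean 3.09) and 1434298_at (mean 2.92) lay in the range of the Y-linked means. For Zeb1 and Zeb2 the probe sets thus did not rank the tumors alike, and each value applies to its own probe set.

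**Figure D3:**
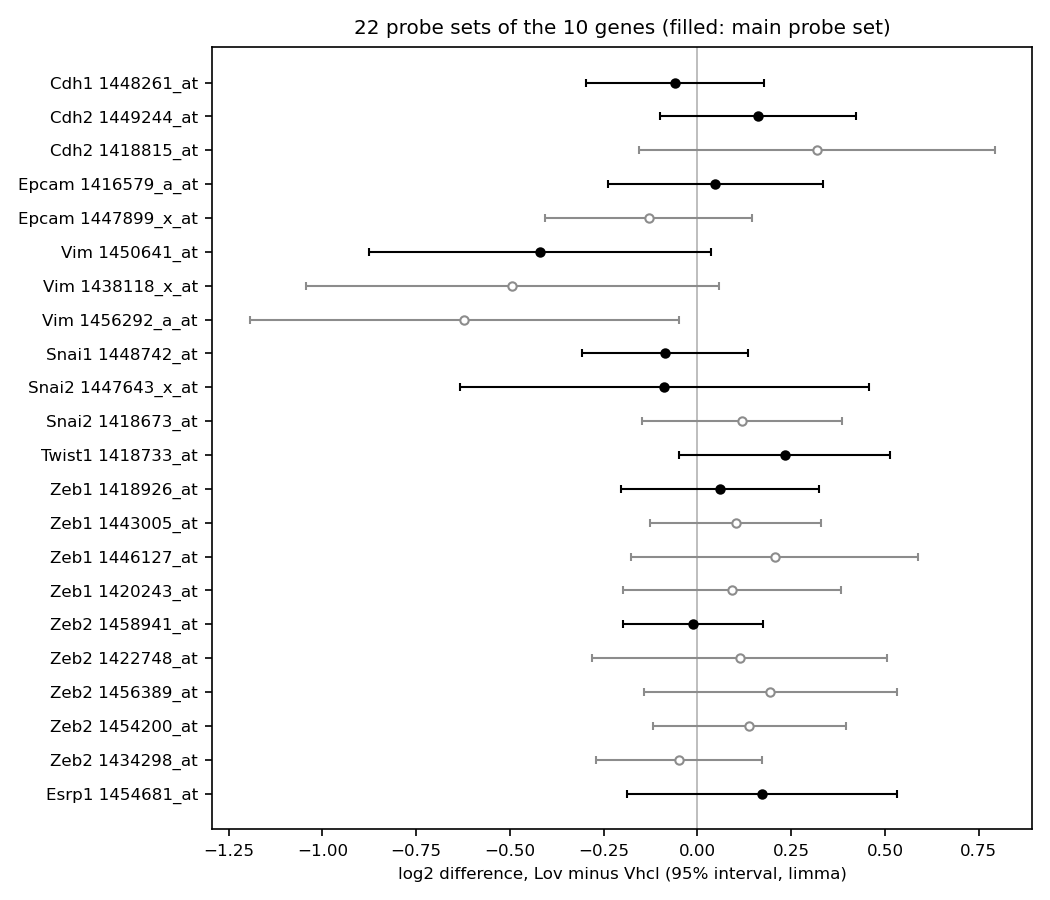
Log2 difference, Lov minus Vhcl (x axis), with its 95% interval from limma for each of the 22 probe sets (y axis). Filled points are main probe sets. The intervals cross 0 for 21 of the 22, the exception being Vim 1456292_a_at at -0.62.

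Among the members, 45 pairs were compared over the 10 tumors, and 0 passed after Benjamini-Hochberg adjustment of Pearson's r or Spearman's rho. Unadjusted, 4 pairs passed by r and 2 by rho. Snai1 and Cdh2 had r = -0.78 (permutation p = 0.00821, adjusted 0.191) and rho = -0.64. Snai1 and Zeb1 had r = -0.767 (permutation p = 0.0085, adjusted 0.191) and rho = -0.626, and Cdh2 and Zeb1 had r = 0.632 (permutation p = 0.0469, adjusted 0.528) and rho = 0.37. These 3 relations rested on Lov A19 and Vhcl AB11, without which r was -0.451, -0.221 and -0.111.

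Vim and Snai2 had r = 0.668 (permutation p = 0.0349, adjusted 0.523) and rho = 0.842 (permutation p = 0.00394, adjusted 0.177). The r of these main probe sets was 0.47 within Vhcl, 0.878 within Lov and 0.609 without the 2 tumors farthest from the Vim median. The second Snai2 probe set followed the first weakly (r = 0.26), and its relation with Vim was not tested. Cdh1 and Esrp1 had r = 0.591 (permutation p = 0.0747, adjusted 0.656) and rho = 0.681 (permutation p = 0.0357, adjusted 0.647), with r of 0.694 within Vhcl and 0.74 within Lov. Cdh1 and Vim, markers of the opposite states, had r = -0.274 (permutation p = 0.44) and rho = -0.231.

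**Figure D4:**
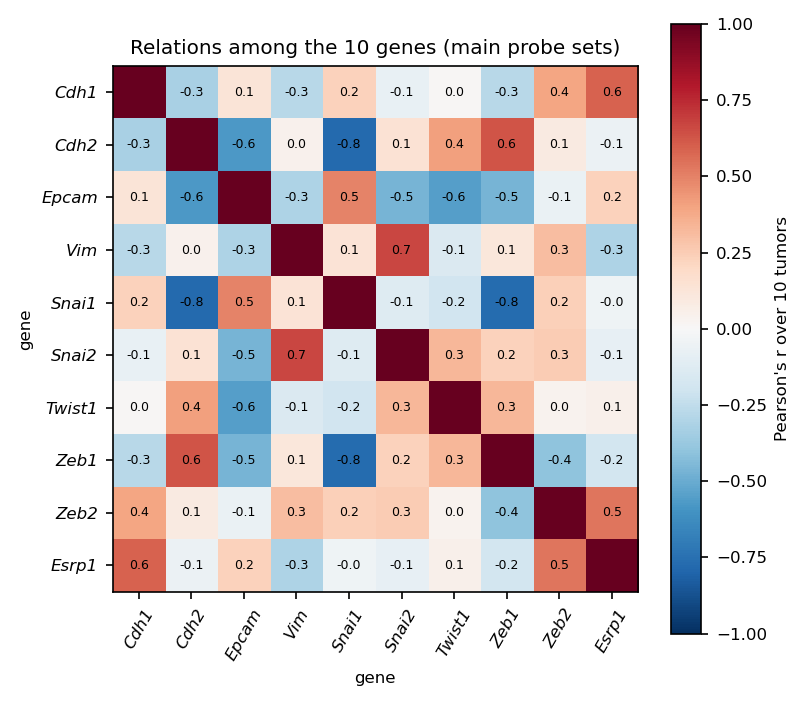
Pearson's r over the 10 tumors between the main probe sets of each pair of the 10 genes (both axes are genes, color gives r from -1 to 1). The strongest cells are Snai1 with Cdh2 (-0.78) and with Zeb1 (-0.767), and Vim with Snai2 (0.668).

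For each member the genes with the most similar pattern over the 10 tumors were sought among 9095 genes with a mean above the median. The values describe these tumors and carry no test, since the highest of many correlations over 10 tumors is high by selection. Vim was nearest to Alox5ap (r = 0.967), which encodes the leukocyte protein that presents arachidonate to 5-lipoxygenase, Plbd1 (0.962) and Ms4a6d (0.953). Epcam was nearest to Plpp6 (0.969), Aldh2 (0.944) and Drap1 (0.944), and Esrp1 to Lamb3 (0.958), the laminin beta chain of epithelial basement membrane, Rab3gap1 (0.945) and Ints8 (0.933). Cdh1 was nearest to Ppp2r3a (0.924), Herc4 (0.903) and Tars (0.865), and Cdh2 to Rabgef1 (0.902), Twf2 (0.895) and Tmem230 (0.864). Of the transcription factors, Snai1 was nearest to Fam189a2 (0.863), Rbm41 (0.86) and Gpbp1 (0.839), and Snai2 to Wac (0.959), Fam160b2 (0.905) and Smarcd2 (0.897). Twist1 was nearest to Tnfaip2 (0.93), Clasp2 (0.918) and Dusp1 (0.909). Zeb1 was nearest to Nudt16l1 (0.951), Terf2 (0.884) and Gskip (0.879), and Zeb2 to Prkca (0.93), Afdn (0.89) and Faxc (0.889).

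Other genes of the program were grouped by role, and 0 of them passed after adjustment over all probe sets. Among other transcription factors that promote the transition, 12 of 14 were measured, with 5 positive and 7 negative differences, 0 with p under 0.05 and a median of -0.01. Cofactors and regulators of the Zeb and Snail proteins (15 of 16 measured) had 8 positive and 7 negative differences, 0 with p under 0.05 and a median of 0.04. The 8 cadherins, Cdh1 and Cdh2 included, had 5 positive and 3 negative, 0 with p under 0.05 and a median of 0.08. All 3 groups were close to the median over all genes, 0.00.

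Of 14 factors that maintain the epithelial state, 5 had positive and 9 negative differences (median -0.10). At p under 0.05 there was 1 in each direction, against 2.75% of all genes lower and 3.5% higher. Grhl1, a grainyhead factor, was at 0.61 ± 0.25 (SE; p = 0.0339; exact permutation p = 0.0714). Its paralog Grhl2 was at -0.26 ± 0.12 (p = 0.04998; exact permutation p = 0.0714). Both went above 0.05 on leaving out single tumors, 6 of the 10 for Grhl1 and 7 of the 10 for Grhl2. As the mean of its 4 probe sets Grhl2 was at -0.09, with an unadjusted p above 0.05.

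Of the epithelial junction and polarity genes 30 of 32 were measured, with 17 positive and 13 negative differences and a median of 0.06. At p under 0.05, 1 was higher and 2 were lower, against 3.5% and 2.75% of all genes. The polarity gene Llgl2 was lower in Lov, from 7.23 to 7.35 against 7.37 to 7.72 in Vhcl, without overlap (-0.24 ± 0.09; p = 0.0196, adjusted 0.928; exact permutation p = 0.00794), and its unadjusted p was just above 0.05 without Vhcl A49. Cldn1, a tight junction claudin, was at -0.70 ± 0.26 (p = 0.0196; exact permutation p = 0.0556). As the mean of its 4 probe sets it was at -0.26, with an unadjusted p above 0.05. Ocln, which encodes occludin, was at 0.29 ± 0.12 (p = 0.0337; exact permutation p = 0.0556) and went above 0.05 on leaving out any of 7 tumors. As the mean of its 2 probe sets Ocln was at 0.22, with an unadjusted p above 0.05.

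Mesenchymal structural genes (24 of 25 measured) had 5 positive and 19 negative differences and a median of -0.28, with 2 genes lower and 1 higher at p under 0.05, where 2.75% and 3.5% of all genes were. The list shares fibroblast genes with the marker list above, and the same limit on stromal content applies. A negative median was not particular to this side. The 6 luminal epithelial markers had 1 positive and 5 negative differences and a median of -0.37, against 0.00 over all genes. At p under 0.05, 1 of them was lower (Krt7, -1.10) and 1 higher (Cd24a, 0.45). The matrix protein gene Tnc ran from 5.95 to 8.34 in Vhcl and from 4.59 to 6.44 in Lov (-1.51 ± 0.51; p = 0.012, adjusted 0.919; exact permutation p = 0.0476). Cd44, the hyaluronan receptor, ran from 8.69 to 10.14 in Vhcl and from 7.67 to 9.92 in Lov, where A19 was highest (-1.09 ± 0.40; p = 0.0198; exact permutation p = 0.0635), and its p was above 0.05 without Lov AB10 or Vhcl A45. Both genes stand on the study's own list of genes lower in these tumors, so they are no independent evidence of the list's direction. The matrix gene Sparc had the opposite sign, 0.39 ± 0.16 (p = 0.0333; exact permutation p = 0.0476). Its p went above 0.05 without Lov A19, Lov A55, Vhcl A45 or Vhcl AB11. As the mean of its 3 probe sets Sparc was at 0.24, with an unadjusted p above 0.05. Of the 5 mesenchymal intermediate filament genes, Vim included, 4 were negative (median -0.12). Nes, which encodes nestin, was the positive one at 1.08 ± 0.41 (p = 0.0225; exact permutation p = 0.0556), with p above 0.05 without Lov AB10 or Vhcl A59.

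**Figure D5:**
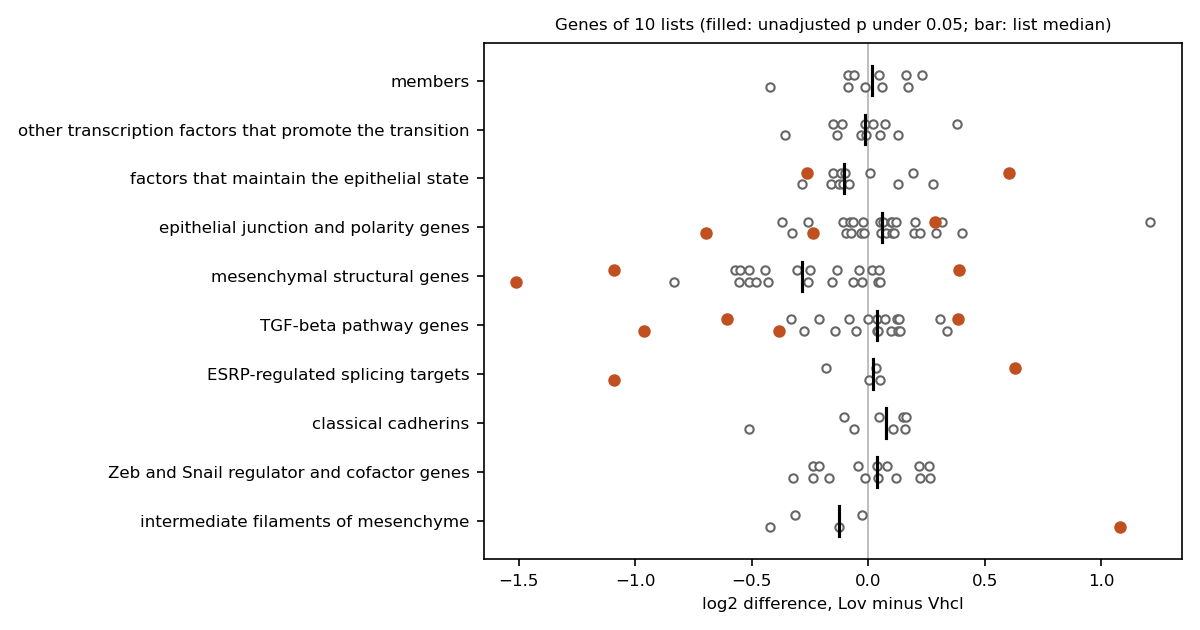
Log2 difference, Lov minus Vhcl (x axis), of each measured gene in 10 lists (y axis), with a bar at the median of each list. Filled points have an unadjusted p under 0.05. Mesenchymal structural genes have the lowest of these medians, -0.28, and the 10 EMT regulators have a median of 0.02 and no filled point.

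TGF-beta signaling is a main inducer of EMT. Of its pathway genes 22 of 23 were measured, with 13 positive and 9 negative differences and a median of 0.04. Id2, a helix-loop-helix inhibitor, was tightly grouped, from 10.79 to 10.82 in Vhcl and from 11.07 to 11.29 in Lov, without overlap (0.38 ± 0.08; p = 0.000354, adjusted 0.84; exact permutation p = 0.00794). At p under 0.05, 1 gene was higher and 3 were lower, against 3.5% and 2.75% of all genes. Tgfbr3, the co-receptor betaglycan, was at -0.38 ± 0.12 (p = 0.0091; exact permutation p = 0.0159). The ligand gene Tgfb3 was at -0.61 ± 0.21 (p = 0.0126; exact permutation p = 0.0397). Tgfbi, a matrix gene that TGF-beta induces, was at -0.96 ± 0.37 (p = 0.0254; exact permutation p = 0.0714). As the mean of its 2 probe sets Tgfbr3 was at -0.19, with an unadjusted p above 0.05, and Tgfbi went above 0.05 without Lov A50, Lov AB10 or Vhcl A49.

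Of the 6 genes spliced under control of the Esrp proteins, 4 had positive and 2 negative differences (median 0.02). At p under 0.05, 1 was higher and 1 lower, against 3.5% and 2.75% of all genes. Cd44 was lower, as given above. Enah, an actin regulator, ran from 9.19 to 10.27 in Vhcl and from 10.28 to 10.67 in Lov (0.63 ± 0.19; p = 0.00763, adjusted 0.919; exact permutation p = 0.00794). Its groups, like those of Llgl2 and Id2, did not overlap, as was so for 0.693% of all genes. Its p stayed under 0.05 on leaving out any 1 tumor, as did those of Id2, Tgfbr3, Tgfb3, Cldn1 and Tnc. Splice forms were not analysed here, and the values describe total signal of each probe set.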

How the data were processed

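The values are deposited log2 signals, which the authors computed with RMA in affy, per the submitters' processing notes. Versions and genome build are not given in the sources used here. No further scaling was applied. Arrays have no sequencing depth, so the number of tumors limits the precision.

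The members and lists were chosen with earlier results of these data known. Lov and Vhcl (5 tumors each) were compared with limma 3.58.1 in R 4.3.3 (lmFit and eBayes, default prior, prior degrees of freedom 3.61), 2-sided, with Benjamini-Hochberg adjustment over 45037 probe sets. The 64 control probe sets were left out. P-values measure only the spread between these tumors, and SE is limma's moderated one. A single gene symbol was attached to 34945 probe sets, several to 932 and none to 9160. Of those with a single symbol, 34741 were found in the gene table (GRCm38.p6, used for names). Exact permutation tests enumerated 252 assignments, and permutation tests of correlations drew 100000 resamples, both 2-sided, with numpy 2.4.6 and scipy 1.17.1.

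The text names all 10 members, from each list at most 4 genes with the lowest p under 0.05, and for each member the 3 genes of highest r. Other names (tissue markers, Y-linked genes) were chosen after their values were seen. The correlations of the members with the beta-actin difference and of Vim with the marker lists were also added after seeing the data. The ranges of summed marker signals that the report does not give above follow, over Vhcl and then Lov tumors. They were 12694 to 16991 and 12411 to 14922 (luminal), 243 to 636 and 372 to 507 (basal), 660 to 1283 and 847 to 1356 (pericytes and smooth muscle), 224 to 285 and 222 to 271 (lymphocytes), 60 to 134 and 62 to 115 (adipocytes), 130 to 3072 and 143 to 2605 (skeletal muscle), 237 to 38346 and 135 to 566 (salivary gland), 27911 to 47579 and 29691 to 41874 (milk), and 2189 to 3316 and 2548 to 4211 (nerve and glia). The ranges of the groups overlapped in each list, and the salivary gland sums had the higher median in Vhcl, as given in the report. The nerve and glia sum was mostly Sox10 (11.31 in Vhcl), with S100b at 6.81, Dbh at 6.41 and Th at 4.23, so it reads chiefly that gene.

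Alternatives were a trended and robust prior, array weights, the methods' t-test, array centering, repeated quantile normalization, the prefix of the tumor name or the beta-actin 3′ minus 5′ difference as a covariate, the mean or the most variable of a gene's probe sets, probe sets above the median signal, a ratio of linear means, and leaving out tumors. The fit was tested on simulated data.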

Additional observations from a re-analysis of the deposited data

Results flagged for a closer look

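Of 44 groups of 5 tumors tested with Dixon's ratio (critical value 0.71), 2 had a tumor far from the others, and chance flags about 1 in 20. For Epcam probe set 1447899_x_at, Lov AB10 was lowest at 7.60, with a gap of 0.755 of the group's range to the nearest tumor at 7.97. For Snai2 probe set 1447643_x_at, Lov A19 was highest at 6.48, with a gap of 0.826 of the range to the nearest tumor at 5.53.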

How the results depend on the processing

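Over 21 or 22 alternatives per gene, Cdh1, Cdh2, Snai1, Esrp1, Vim and Twist1 kept their direction, from -0.65 to -0.30 for Vim and from 0.16 to 0.38 for Twist1. Epcam, Snai2, Zeb1 and Zeb2, whose differences were below 0.1, changed sign in some. For Epcam (0.05) the value was -0.088 with the beta-actin difference as a covariate, -0.041 as the mean of probe sets, -0.13 with the most variable probe set, and from -0.001 to 0.13 leaving out 1 tumor at a time. For Snai2 (-0.09) it was 0.14 with that covariate, 0.015 as the mean of probe sets, and from -0.30 to 0.0545 leaving out tumors. Zeb1 ran from -0.026 to 0.12 leaving out tumors. Zeb2 was at 0.022 with the covariate, 0.076 as the mean, 0.11 with the most variable probe set, and from -0.051 to 0.029 leaving out tumors. The r of Cdh2 and Zeb1, 0.632, was -0.111 without its 2 farthest tumors.

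The number of members lower at p under 0.05, 0 in the report, was 2 without Lov A19 and Vhcl AB11, 1 with the most variable probe set and from 0 to 1 leaving out single tumors. The number higher was 1 with the beta-actin covariate and from 0 to 1 leaving out tumors. The cause was not tested. The filter on probe sets above the median signal left out Cdh2, Twist1 and Zeb2. Counts in the lists were small and moved: junction genes lower were 4 with the covariate against 2, and 3 were higher without Lov A19 and Vhcl AB11 against 1. Tnc with the covariate was at -1.15, with an unadjusted p just above 0.05. No paired analysis was possible because the labels carry no replicate numbers and tie no Vhcl tumor to a Lov tumor.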
